A study of Mus musculus with 12 samples.

Results

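The solute carriers (Slc genes) described here are the 99 protein-coding mouse genes whose symbols start with Slc1a, Slc2a, Slc3a, Slc5a, Slc6a, Slc7a, Slc16a, Slc38a or Slc43a followed by a number. They were picked by symbol out of 54146 gene identifiers, with no use of measured values, and 38 of them had enough counts to be tested. One member, Slc7a6os, met the symbol rule only because it lies on the strand opposite Slc7a6; its name marks it as that neighbour and not as a transporter.

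Solute carriers move small molecules across membranes, and the families taken here carry sugars, lactate and other monocarboxylates, vitamins, inositol, creatine, taurine and amino acids. Some work as uniporters down a gradient, some draw on the sodium gradient, and the heteromeric amino acid transporters pair a heavy chain (Slc3a1 or Slc3a2) with 1 of several light chains of the Slc7 family and exchange an amino acid for another. In liver, the hepatocyte's glucose carrier is Slc2a2, while Slc2a1, Slc7a5, Slc7a11, Slc1a5 and Slc16a1 are often studied in proliferating and transformed cells.

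RNA was sequenced from BMEL cells, a bipotential line from embryonic mouse liver whose cells can form hepatocytes or bile duct cells. The line had been isolated from a mouse with floxed Cdk8 alleles (CDK8F/F), and all cells grew exponentially on collagen in medium with fetal calf serum, insulin, IGFII and EGF. The 4 groups of 3 libraries were Cdk8 -/- cells transformed by H-RasG12V (Cdk8 KO), Cdk19 -/- cells transformed by H-RasG12V (Cdk19 KO), wild-type cells transformed by H-RasG12V (RasG12V) and wild-type cells without H-Ras (untransformed). Cdk8 and Cdk19 are kinases of the Mediator complex, and the series asks what H-RasG12V transformation and the loss of either kinase change in the transcriptome. The labels do not say how H-RasG12V was introduced, whether the knockouts are single clones, or whether each library had its own culture. P-values therefore measure the spread between these libraries, which may be technical.

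Libraries held 24823560 to 36879661 gene counts. Hras averaged 453 ± 122.6 CPM (counts scaled to a common library size) in RasG12V cells and 49.98 ± 8.57 CPM in untransformed cells (SD, n = 3 each; log2 fold change 3.18, SE 0.19, edgeR adjusted p = 4.04e-07). Cdk8 averaged 42.8 ± 1.298 CPM in Cdk8 KO cells and 54.5 ± 3.13 CPM in RasG12V cells (log2 fold change -0.35, SE 0.08, edgeR adjusted p = 0.415), and Cdk19 averaged 49.8 ± 4.22 CPM in Cdk19 KO cells and 75.2 ± 16.05 CPM in RasG12V cells (log2 fold change -0.60, SE 0.13, edgeR adjusted p = 0.243). Without both replicates 3 the 2 targeted genes passed, with log2 fold changes of -0.39 for Cdk8 (edgeR adjusted p = 0.00659) and -0.40 for Cdk19 (edgeR adjusted p = 0.0136). Counts over whole genes do not check a deletion of part of a gene. Hras averaged 451 CPM in Cdk8 KO and 422 CPM in Cdk19 KO cells, with log2 fold changes over RasG12V of -0.01 and -0.10. Without both replicates 3 these were -0.21 (edgeR adjusted p = 0.0845) and -0.30 (edgeR adjusted p = 0.0133). Of 17 markers of hepatic progenitors and epithelium, 12 averaged at least 1 CPM in each transformed group and 14 in untransformed cells, with Dlk1 at 0 in all 12 libraries. Epcam reached at most 0.211 CPM in any library. Alb reached at most 0.0603 CPM in transformed libraries, against 1.73 to 4.12 CPM in untransformed ones. Foxa3 averaged under 1 CPM in each transformed group, and Onecut1 in all 4 groups. Markers of stellate cells and fibroblasts, endothelium and erythroid cells summed to at most 2.45, 0.669 and 0.242 CPM in any library, and 7 macrophage and leukocyte markers summed to between 33.5 and 60.4 CPM, with Adgre1 and Clec4f at 0 throughout. Most of the latter sum was Cd14 (29.4 to 52.5 CPM), followed by Cd68 (2.97 to 6.75 CPM). Ptprc, Csf1r and Lyz2 stayed under 1 CPM in every library. Replicate 3 of RasG12V and replicate 3 of untransformed cells stood apart: their counts differed from those of the other 2 libraries of their group by a mean chi-square per gene of 80.0 to 86.9 and 52.0 to 52.4, against 4.42 to 18.2 for every other pair of the same group. Results that rest on these libraries are therefore also given without both of them. That fit was chosen with these data known and leaves 2 libraries in each of these groups. Its smaller p-values partly reflect that choice. In these bulk libraries, fewer cells with a transcript and less of it per cell cannot be told apart.

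Among the 99 members, amino acid carriers gave the highest levels per length of exon. Averaged over 12 libraries, Slc3a2, the heavy chain also known as CD98hc or 4F2hc, stood at 80.1 CPM per kb of exon, with a range of 62.4 to 124 CPM per kb. Slc7a6, a light chain that exchanges cationic for neutral amino acids, stood at 76.6 CPM per kb (68.3 to 90.7). The taurine transporter Slc6a6 followed at 50.2 CPM per kb (42.0 to 63.1), the neutral amino acid carrier Slc38a2 at 40.5 (31.2 to 50.2) and Slc7a5, the light chain for leucine and other large neutral amino acids, at 37.0 (27.6 to 45.8). The library ranges of Slc7a6 and Slc6a6 did not overlap, while those of the other neighbours among these 5 did, so their order is not separated by the spread.

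Each other class had 1 leading member. The lactate and pyruvate carrier Slc16a1 averaged 33.4 CPM per kb, the glutamine carrier Slc1a5 averaged 22.9, the glucose carrier Slc2a1 averaged 19.1 and the arginine and lysine carrier Slc7a1 averaged 17.9. The multivitamin carrier Slc5a6, which takes up biotin and pantothenate, led the Slc5 family at 4.05 CPM per kb, just above the inositol carrier Slc5a3 at 3.17. Slc43a2, a carrier for branched-chain and aromatic amino acids, was the only tested member of the Slc43 family, at 0.756 CPM per kb.

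The other 61 members were too low to test. Of these, 11 had no count in any library, 29 stayed under 0.1 CPM in their highest library, 19 reached between 0.1 and 0.5 CPM, and 2, Slc2a2 and Slc7a8, reached more. These low members are named after their values were seen, apart from Slc2a3 and Slc16a3. Slc2a3, a glucose carrier of neurons and many tumours, had 3 counts over all 12 libraries, and Slc16a3, a lactate carrier typical of glycolytic cells, had 18. In a single library, 3 counts correspond to 0.0813 to 0.121 CPM.

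**Figure D1:**
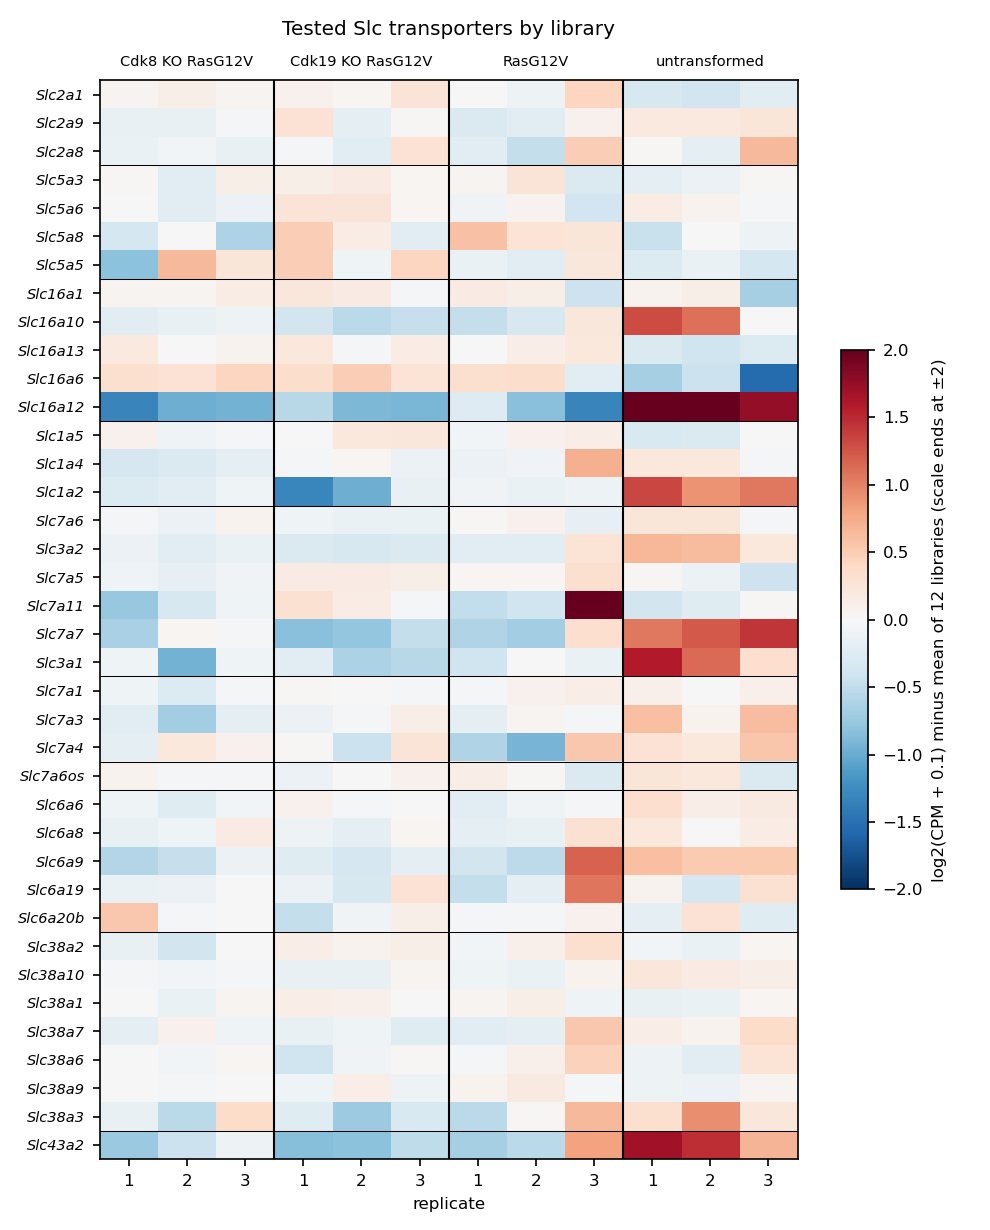
Heat map of the 38 tested members (one per line, grouped by class, highest mean CPM first within a class) in 12 libraries (columns, by group and replicate). Colour is log2(CPM + 0.1) minus the member's mean over the 12 libraries; red is above that mean, as in untransformed replicates 1 and 2 for Slc16a12, Slc7a7, Slc43a2 and Slc16a10 and in RasG12V replicate 3 for Slc7a11.

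RasG12V against untransformed cells was the comparison in which members changed with all 12 libraries in the fit. Of 38 tested members, 11 passed an edgeR adjusted p of 0.05: 3 were higher in RasG12V cells (Slc2a1, Slc16a6 and Slc16a13) and 8 were lower (Slc16a12, Slc7a7, Slc3a1, Slc3a2, Slc43a2, Slc16a10, Slc6a6 and Slc1a2). That is 28.9% of the members tested, beside 23.4% of all 14283 genes tested (11.9% higher and 11.5% lower). For 13 of the 38 members the RasG12V libraries were all above or all below the untransformed ones, beside 32.3% of all genes tested. The members' median log2 fold change was -0.11, beside 0.00 for all genes tested. Without both replicates 3, 23 of 39 members passed, 6 higher and 17 lower, beside 40.0% of all genes (19.0% higher and 21.0% lower), and all 11 were among the 23 with their direction kept. With only the 6 libraries of these groups in the fit, 3 of the 11 passed (Slc16a12, Slc7a7 and Slc1a2), and the other 8 had adjusted p-values of 0.0537 to 0.133. Of these 3, Slc16a12 and Slc1a2 met the count filter only through untransformed libraries. The share of all genes that passed in that fit was not counted.

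**Figure D2:**
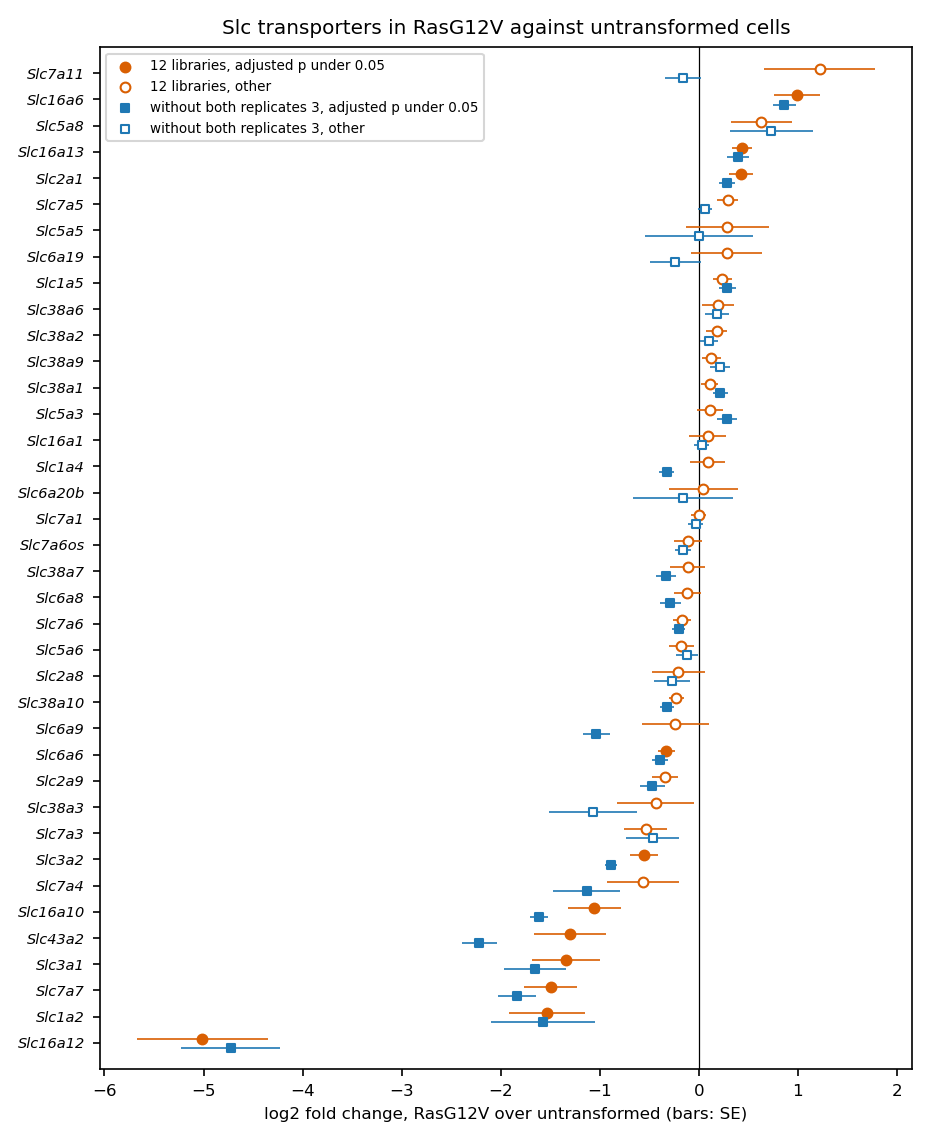
Log2 fold change of each tested member in RasG12V over untransformed cells, with its SE, from all 12 libraries (circles) and without both replicates 3 (squares); filled symbols passed an edgeR adjusted p of 0.05. Slc16a12 lies farthest left at -5.01, and Slc7a11 lies at 1.22 with all libraries and at -0.16 without both replicates 3.

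Among the sugar carriers, Slc2a1 was higher in RasG12V cells. This carrier, known as GLUT1, takes up glucose in most dividing cells. Slc2a1 (chr4:119108711-119137983) had 65.6, 61.3 and 88.9 CPM in RasG12V cells, against 52.8, 50.5 and 57.05 CPM in untransformed cells. Every RasG12V library was above every untransformed library, and replicate 3 was the highest of the RasG12V libraries (log2 fold change 0.43, SE 0.12, edgeR adjusted p = 0.0232). Without RasG12V replicate 3 alone the log2 fold change was 0.26 (edgeR adjusted p = 0.0285), and without both replicates 3 it was 0.28 (edgeR adjusted p = 0.00838). The call was lost without untransformed replicate 1 (adjusted p = 0.0824) and without untransformed replicate 2 (adjusted p = 0.0962).

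The other tested Slc2 members did not pass with all 12 libraries. Slc2a9, a urate carrier, had a log2 fold change of -0.34 (SE 0.13, edgeR adjusted p = 0.0819). It passed as lower without both replicates 3 (log2 fold change -0.47, edgeR adjusted p = 0.00629) and without RasG12V replicate 3 alone (log2 fold change -0.46, edgeR adjusted p = 0.0131). Slc2a8, a carrier found on intracellular membranes, had a log2 fold change of -0.21 (SE 0.27, edgeR adjusted p = 0.634). Slc2a2, the hepatocyte glucose carrier GLUT2, was under the count filter and is named after its values were seen. It had 7 counts in RasG12V cells and 78 counts in untransformed cells, with 0.109, 0.0818 and 0.0603 CPM in RasG12V libraries, against 1.24, 1.02 and 0.298 CPM in untransformed libraries. Its level was 10.1-fold higher in untransformed cells, with a 95% interval of 4.67 to 25.9 that covers counting error only. It entered the test when both replicates 3 were left out (log2 fold change -3.51, SE 0.57, edgeR adjusted p = 5.66e-05). With the filter on, it could enter only through untransformed libraries, so its entry and its fall rest on the same values. It also passed as lower with no filter on low counts (log2 fold change -3.28, edgeR adjusted p = 6.28e-07). The same held with any 1 transformed library or untransformed replicate 3 left out (edgeR adjusted p from 0.000234 to 0.0126). It was not among the calls without untransformed replicate 1 or 2, its highest libraries, and may not have met the filter there.

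Of the Slc5 family, none of the 4 tested members passed in RasG12V against untransformed cells with all 12 libraries, and none had an unadjusted p under 0.05. Slc5a8, which couples lactate and other monocarboxylates to sodium, had 0.838, 0.654 and 0.633 CPM in RasG12V cells, against 0.355, 0.526 and 0.477 CPM in untransformed cells (log2 fold change 0.63, SE 0.31, edgeR adjusted p = 0.168). The RasG12V libraries were all above the untransformed ones, at levels under 1 CPM. The inositol carrier Slc5a3 had a log2 fold change of 0.11 with all libraries and passed without both replicates 3 (log2 fold change 0.29, SE 0.10, edgeR adjusted p = 0.0307).

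The Slc16 family held members that changed in both directions: 4 of its 5 tested members passed, 2 higher and 2 lower. Slc16a6 encodes a carrier reported to export ketone bodies from hepatocytes in zebrafish. It had 18.2, 18.7 and 12.6 CPM in RasG12V cells, against 9.19, 10.8 and 4.95 CPM in untransformed cells. All RasG12V libraries were above all untransformed ones, and replicate 3 was the lowest library of each group (log2 fold change 0.99, SE 0.23, edgeR adjusted p = 0.00815). Slc16a13, a monocarboxylate carrier of hepatocytes, had 17.6, 19.1 and 20.3 CPM in RasG12V cells, against 14.3, 13.2 and 14.5 CPM in untransformed cells. Here too the groups did not overlap (log2 fold change 0.44, SE 0.10, edgeR adjusted p = 0.00723).

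Slc16a12, a creatine carrier, was nearly absent from RasG12V cells. The gene lies at chr19:34668403-34747289 (GRCm38). It had 0.109, 0.0409 and 0 CPM in RasG12V cells, against 2.27, 1.98 and 0.746 CPM in untransformed cells. These values rest on 4 counts over the RasG12V libraries and 153 counts over the untransformed ones, a 34.6-fold higher level in untransformed cells (95% interval 13.2 to 129, counting error only). The fitted log2 fold change was -5.01 (SE 0.66, edgeR adjusted p = 0.000170). Slc16a12 met the count filter only through its untransformed libraries, so its entry to the test and its fall rest on the same values. The Cdk8 KO libraries held 2 counts and the Cdk19 KO libraries 4, so low counts were seen in all 9 transformed libraries.

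Slc16a10, known as TAT1, lets aromatic amino acids leave epithelial cells. It had 19.6, 21.8 and 31.8 CPM in RasG12V cells, against 67.1, 58.2 and 27.2 CPM in untransformed cells. Replicates 1 and 2 of the groups were far apart, while RasG12V replicate 3 lay above untransformed replicate 3, so the groups overlapped (log2 fold change -1.05, SE 0.27, edgeR adjusted p = 0.0125). The fall was larger without both replicates 3 (log2 fold change -1.61, SE 0.09, edgeR adjusted p = 6.28e-11). That fit leaves out the libraries that went against the fall, so its small p-value partly reflects that choice. The call was lost without untransformed replicate 1 (adjusted p = 0.0627), without RasG12V replicate 1 (adjusted p = 0.0524) and with no filter on low counts (adjusted p = 0.0765). Slc16a1, the main lactate carrier in these cells, had 163, 159 and 109 CPM in RasG12V cells, against 154, 158 and 92.3 CPM in untransformed cells. Replicate 3 was the lowest library of each group, the groups overlapped, and the log2 fold change was 0.09 (SE 0.19, edgeR adjusted p = 0.785).

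The heteromeric amino acid transporters had 3 of 6 tested members lower in RasG12V cells and none higher past the threshold. Slc3a2, the heavy chain that brings Slc7a5, Slc7a6, Slc7a7 and Slc7a11 to the plasma membrane, had 235, 236 and 332 CPM in RasG12V cells, against 437, 423 and 319 CPM in untransformed cells. RasG12V replicate 3 was just above untransformed replicate 3 and the other libraries were well separated (log2 fold change -0.55, SE 0.14, edgeR adjusted p = 0.0119). Without both replicates 3 the log2 fold change was -0.88 (SE 0.06, edgeR adjusted p = 9.13e-10). Those left out were the libraries that went against the fall, so this small p-value partly reflects that choice. The call was lost without any 1 of untransformed replicate 1 or 2 or RasG12V replicate 1 or 2 (adjusted p = 0.0558, 0.0501, 0.0535 and 0.0552).

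Slc7a7 is the light chain y+LAT1, which moves cationic amino acids out across the basolateral membrane of intestinal and renal epithelia. It had 3.43, 3.23 and 6.66 CPM in RasG12V cells, against 11.1, 12.4 and 14.3 CPM in untransformed cells. Every RasG12V library was below every untransformed one, with replicate 3 the highest of each group (log2 fold change -1.50, SE 0.27, edgeR adjusted p = 0.00141). Leaving out any single library kept this call. Slc3a1, the heavy chain rBAT that pairs with Slc7a9 for cystine uptake in kidney, had 0.838, 1.15 and 1.02 CPM in RasG12V cells, against 3.59, 2.598 and 1.46 CPM in untransformed cells. The groups did not overlap (log2 fold change -1.34, SE 0.34, edgeR adjusted p = 0.0130), but the call was lost without untransformed replicate 1 (adjusted p = 0.0641) or RasG12V replicate 1 (adjusted p = 0.0515). Its partner Slc7a9 was under the count filter, with 4 counts in RasG12V cells and 29 in untransformed cells.

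The light chains at higher levels did not pass. Slc7a5 (LAT1) had 140.1, 139 and 169.7 CPM in RasG12V cells, against 139, 126 and 102 CPM in untransformed cells. All RasG12V libraries were above the untransformed ones by a small margin (log2 fold change 0.29, SE 0.11, edgeR adjusted p = 0.0709), and without both replicates 3 the log2 fold change was 0.06 (SE 0.07). It passed without untransformed replicate 1 (log2 fold change 0.38, edgeR adjusted p = 0.0415). Slc7a6 (y+LAT2) had a log2 fold change of -0.17 (SE 0.09, edgeR adjusted p = 0.222), and it passed without both replicates 3 (log2 fold change -0.20, SE 0.07, edgeR adjusted p = 0.0219). Its opposite-strand neighbour Slc7a6os had -0.11 (SE 0.14, edgeR adjusted p = 0.634).

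Slc7a11, or xCT, imports cystine in exchange for glutamate and so feeds glutathione synthesis. It had 18.9, 20.3 and 124 CPM in RasG12V cells, against 20.7, 22.6 and 27.05 CPM in untransformed cells. Replicates 1 and 2 of RasG12V lay below all untransformed libraries, and replicate 3 lay far above them (log2 fold change 1.22, SE 0.56, edgeR adjusted p = 0.142). The direction turned without both replicates 3, with a log2 fold change of -0.16 (SE 0.18, edgeR adjusted p = 0.521). Leaving out RasG12V replicate 1 or replicate 2 instead gave log2 fold changes of 1.64 (adjusted p = 0.0397) and 1.62 (adjusted p = 0.0473).

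Slc43a2, or LAT4, carries branched-chain and aromatic amino acids down their gradient and was the Slc43 member that could be tested. It had 3.86, 4.21 and 10.9 CPM in RasG12V cells, against 19.95, 17.2 and 9.96 CPM in untransformed cells. RasG12V replicates 1 and 2 were well below all untransformed libraries, and the 2 replicates 3 lay close together with RasG12V above (log2 fold change -1.30, SE 0.36, edgeR adjusted p = 0.0210). Without both replicates 3 the log2 fold change was -2.22 (SE 0.18, edgeR adjusted p = 6.19e-09). Those left out were the libraries that went against the fall, so this small p-value partly reflects that choice. The call was lost without any 1 of untransformed replicate 1 or 2 or RasG12V replicate 1 or 2 (adjusted p = 0.0866, 0.0645, 0.0760 and 0.0803) and with no filter on low counts (adjusted p = 0.110).

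**Figure D3:**
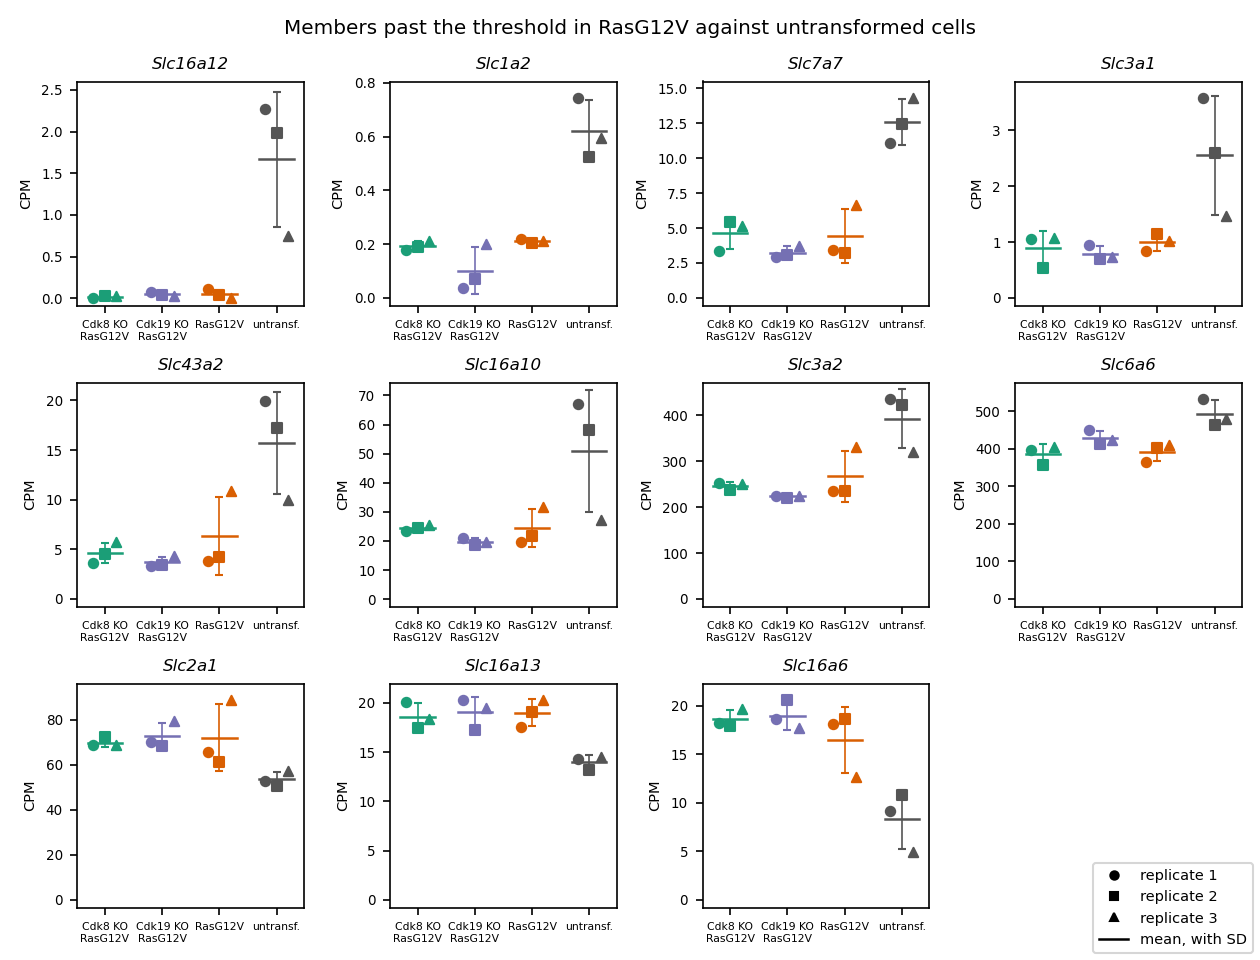
CPM of the 11 members past the threshold, by library: points are libraries (shape by replicate), lines are group means and bars are SD (n = 3). Slc16a12 is near 0 in all transformed libraries, and in the panels of Slc16a10, Slc43a2 and Slc3a2 the untransformed replicate 3 (triangle) lies below its group mean.

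The promoters of Slc7a7, Slc43a2 and Slc16a10, members that fell, and of Slc7a11, which was high in a single RasG12V library, are shown as examples of amino acid carriers whose level differed between the groups or in a single library. Each is the 250 bases before the start site in RefSeq's GRCm38.p6 annotation, 5′ to 3′ on the gene's own strand; for Slc7a7 and Slc43a2, which have 5 and 2 entries, the entry farthest upstream is shown. Entries existed for 72 of the 99 members and 28 of the 38 tested. Capitals mark matches, on either strand, to TGATGNAA, the composite element that ATF4 (a transcription factor of the amino acid response) can bind with C/EBP proteins.
Slc7a11 promoter (chr3:50443614-50443863, minus strand): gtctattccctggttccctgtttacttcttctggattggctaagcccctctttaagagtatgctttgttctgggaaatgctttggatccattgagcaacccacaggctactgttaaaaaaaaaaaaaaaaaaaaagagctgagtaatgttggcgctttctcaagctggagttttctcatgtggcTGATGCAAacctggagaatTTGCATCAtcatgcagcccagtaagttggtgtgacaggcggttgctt
Slc7a7 promoter (chr14:54417945-54418194, minus strand): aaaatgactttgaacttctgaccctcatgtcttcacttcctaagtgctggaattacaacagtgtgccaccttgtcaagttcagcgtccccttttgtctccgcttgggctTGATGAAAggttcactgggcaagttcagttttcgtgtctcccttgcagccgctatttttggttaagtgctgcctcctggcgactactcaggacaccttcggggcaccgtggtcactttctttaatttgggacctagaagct
Slc43a2 promoter (chr11:75531444-75531693, plus strand): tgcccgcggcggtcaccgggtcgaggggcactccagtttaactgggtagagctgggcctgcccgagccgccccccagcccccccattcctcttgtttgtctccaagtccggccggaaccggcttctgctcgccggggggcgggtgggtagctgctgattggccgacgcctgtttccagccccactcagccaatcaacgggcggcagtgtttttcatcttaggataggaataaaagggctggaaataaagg
Slc16a10 promoter (chr10:40142255-40142504, minus strand): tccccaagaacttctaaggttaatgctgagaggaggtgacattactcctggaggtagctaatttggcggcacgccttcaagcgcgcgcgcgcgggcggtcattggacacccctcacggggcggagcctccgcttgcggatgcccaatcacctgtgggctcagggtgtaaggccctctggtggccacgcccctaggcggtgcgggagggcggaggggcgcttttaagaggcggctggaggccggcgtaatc
The Slc7a11 window held 2 matches, at -66 on the gene's strand and at -47 on the other strand, and the Slc7a7 window held 1, at -141, counted from the start site. Of 32851 promoters in the table, 3.45% held at least 1 match. Searched on both strands, the antioxidant response motif TGACNNNGC (10.2% of all promoters), the AP-1 motif TGANTCA (6.75%), the E-box CACGTG (6.02%) and the ETS motif CCGGAAG (6.91%) had no match in these 4 windows. In the promoters of the 28 tested members with an entry, the composite element was found in 2 (7.14%), the antioxidant motif in 4 (14.3%), the AP-1 motif in 5 (17.9%), the E-box in 3 (10.7%) and the ETS motif in 4 (14.3%). A match describes the letters of a window and is not evidence of binding.

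Among the remaining amino acid carriers, 2 more members fell. Slc6a6, the taurine transporter, had 365, 401 and 409 CPM in RasG12V cells, against 534, 463 and 478 CPM in untransformed cells. All RasG12V libraries were below all untransformed ones (log2 fold change -0.33, SE 0.08, edgeR adjusted p = 0.0126). This call was lost without untransformed replicate 1 (adjusted p = 0.0567) or RasG12V replicate 1 (adjusted p = 0.0658). Slc1a2, the glutamate transporter GLT-1, was under the 1 CPM minimum of the naming rule and is named after its values were seen: it had 0.219, 0.204 and 0.211 CPM in RasG12V cells, against 0.746, 0.526 and 0.596 CPM in untransformed cells. Its groups did not overlap (log2 fold change -1.53, SE 0.38, edgeR adjusted p = 0.0116). Slc1a2 met the count filter only through untransformed libraries, so its entry to the test and its fall rest on the same values.

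The glutamine carrier Slc1a5 (ASCT2) had 91.3, 100.4 and 104 CPM in RasG12V cells, against 77.04, 78.1 and 95.7 CPM in untransformed cells. Untransformed replicate 3 lay within the RasG12V range (log2 fold change 0.24, SE 0.10, edgeR adjusted p = 0.110), and without both replicates 3 the carrier passed as higher (log2 fold change 0.29, SE 0.08, edgeR adjusted p = 0.00888). The related Slc1a4, a carrier of alanine, serine and cysteine, had a log2 fold change of 0.09 (SE 0.18) with all libraries and passed as lower without both replicates 3 (log2 fold change -0.33, SE 0.08, edgeR adjusted p = 0.00179). The arginine carrier Slc7a1 had 204, 219 and 227 CPM in RasG12V cells, against 221, 206 and 223 CPM in untransformed cells (log2 fold change 0.00, SE 0.08), and the groups overlapped. Slc7a3, another carrier of cationic amino acids, had 1.49, 1.799 and 1.69 CPM in RasG12V cells, against 2.698, 1.82 and 2.71 CPM in untransformed cells. Its groups did not overlap, and it did not pass (log2 fold change -0.54, SE 0.22, edgeR adjusted p = 0.1002).

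None of the 7 tested Slc38 members passed, with 1 at an unadjusted p under 0.05. That member, Slc38a10, had 167, 161 and 185 CPM in RasG12V cells, against 206, 199 and 194 CPM in untransformed cells. The groups did not overlap, but the adjusted p missed the threshold (log2 fold change -0.23, SE 0.08, edgeR adjusted p = 0.0536), and it passed in DESeq2 (adjusted p = 0.0302) and without both replicates 3 (log2 fold change -0.32, SE 0.07, edgeR adjusted p = 0.00164). Slc38a1 and Slc38a2 take up glutamine and other neutral amino acids with sodium. Slc38a1 had a log2 fold change of 0.11 (SE 0.08, edgeR adjusted p = 0.387) and passed without both replicates 3 (log2 fold change 0.22, edgeR adjusted p = 0.0215). Slc38a2 had 0.18 (SE 0.11, edgeR adjusted p = 0.255) and did not pass in either fit.

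Several members were higher in RasG12V replicate 3 than in the other RasG12V libraries. In that library, 7 of the 37 tested members with a ratio were at least 1 log2 unit above the mean of RasG12V replicates 1 and 2, or 18.9%, beside 5.47% of all genes tested; none was as far below, beside 5.45% of all genes. In untransformed replicate 3, 4 of 38 members were at least 1 log2 unit below the mean of replicates 1 and 2, or 10.5%, beside 2.78% of all genes, and 0 were as far above, beside 3.37%. Those 4 were Slc16a10, Slc16a12, Slc16a6 and Slc3a1, all among the 11 that passed. In RasG12V replicate 3, Slc7a11 was highest, at 2.67 log2 units above. Slc6a9, a glycine transporter, had 10.2, 9.16 and 30.1 CPM in RasG12V cells, against 20.3, 19.1 and 19.2 CPM in untransformed cells. Replicates 1 and 2 were below all untransformed libraries and replicate 3 was above them, so that the log2 fold change was -0.24 (SE 0.34, edgeR adjusted p = 0.677) with all libraries and -1.03 (SE 0.13, edgeR adjusted p = 4.07e-06) without both replicates 3. Slc6a19, a neutral amino acid carrier of kidney and intestine, was 1.45 log2 units above in that library, Slc7a4 1.44, Slc43a2 1.43, Slc38a3, a glutamine carrier of liver, 1.02, and Slc7a7 1.00.

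Of the 38 tested genes of the list of 45 that handle what the carriers move, transcription factors included, 1 was at least 1 log2 unit above in that library, or 2.63%. That gene was Chac1. It and the next 2 genes, and the members listed here apart from Slc7a11, Slc43a2 and Slc7a7, are named after their values were seen. Chac1, which degrades glutathione, had 6.196, 5.36 and 29.1 CPM in RasG12V cells, against 11.2, 10.1 and 9.84 CPM in untransformed cells. Asparagine synthetase, Asns, had 149.8, 148 and 295 CPM in RasG12V cells, against 181, 193 and 188 CPM in untransformed cells. Atf4, whose product induces several amino acid carriers, had 293, 252 and 404 CPM in RasG12V cells, against 301, 314 and 313 CPM in untransformed cells. For these 3 genes, RasG12V replicate 3 was the highest of the 6 libraries and RasG12V replicates 1 and 2 were below every untransformed library. Other synthesis enzymes of the list did not follow them. Their log2 ratios in that library were -0.44 for Phgdh, 0.15 for Psat1 and 0.15 for Shmt2. Further genes of the list, Csad at 0.91 and Gclc at 0.86 among them, had higher log2 ratios there than Atf4 at 0.57. Slc16a1 and Slc16a6 were 0.56 and 0.55 log2 units below the other RasG12V libraries in that library, and Hras had 509.7, 537 and 313 CPM in the RasG12V libraries. Which property of that library these values follow was not tested.

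**Figure D4:**
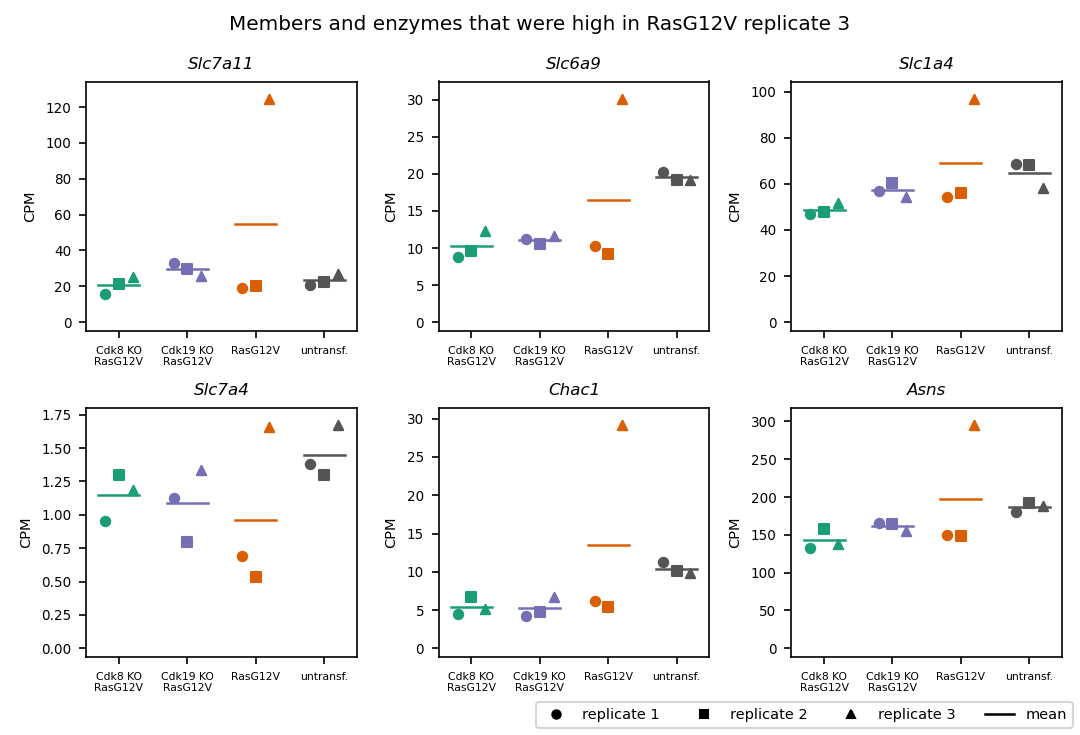
CPM by library of Slc7a11, Slc6a9, Slc1a4 and Slc7a4 and of the enzymes Chac1 and Asns; points are libraries (shape by replicate) and lines are group means. RasG12V replicate 3 (triangle) is the highest RasG12V library in each panel, and Slc7a11 reaches 124 CPM there.

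Across all 9 transformed libraries, 9 of 38 tested members did not overlap with the 3 untransformed libraries, 23.7% beside 23.1% of all genes tested (11.6% above and 11.5% below). Slc16a13, Slc16a6 and Slc2a1 were above, and Slc16a12, Slc1a2, Slc38a10, Slc3a1, Slc6a6 and Slc7a7 were below. Slc7a7 averaged 4.63 ± 1.14 CPM in Cdk8 KO, 3.24 ± 0.445 CPM in Cdk19 KO, 4.44 ± 1.93 CPM in RasG12V and 12.6 ± 1.64 CPM in untransformed cells (SD, n = 3 each). Slc16a6 averaged 18.6 ± 0.944 CPM in Cdk8 KO, 19.01 ± 1.503 CPM in Cdk19 KO, 16.5 ± 3.36 CPM in RasG12V and 8.31 ± 3.02 CPM in untransformed cells. For both genes the knockout libraries were on the RasG12V side of all untransformed libraries. With both replicates 3 left out, 17 of the 38 members did not overlap, beside 45.5% of all genes tested.

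No member passed the threshold when Cdk8 KO was set against RasG12V. edgeR called 0 of 38 members, beside 0% of all genes tested. In edgeR, 6 of the 38 members had an unadjusted p under 0.05, beside 871 of all 14283 genes (6.10%). DESeq2 called 0, with 5 of the 38 at an unadjusted p under 0.05. Leaving out both replicates 3 also gave 0 of 39, beside 1.59% of all genes. The smallest p belonged to Slc1a4, which had 46.7, 47.9 and 51.5 CPM in Cdk8 KO cells, against 54.1, 55.98 and 96.7 CPM in RasG12V cells. The Cdk8 KO libraries were all below the RasG12V ones, of which replicate 3 was far the highest (log2 fold change -0.50, SE 0.18, edgeR adjusted p = 0.748); without both replicates 3 the log2 fold change was -0.17 (SE 0.07). Slc38a2 had 319.7, 276 and 355 CPM in Cdk8 KO cells, against 343, 381 and 444 CPM in RasG12V cells, and the groups overlapped (log2 fold change -0.30, SE 0.11, edgeR adjusted p = 0.750). The next were Slc7a1 (log2 fold change -0.20, SE 0.08), Slc5a8 (-0.80, SE 0.31), and Slc7a11 (-1.40, SE 0.56). For Slc7a11 the direction turned without both replicates 3 (log2 fold change 0.09, SE 0.16).

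None of the carriers often studied in tumours passed in Cdk8 KO cells, which does not show equal levels. Log2 fold changes of Cdk8 KO over RasG12V were -0.04 for Slc2a1 (SE 0.12), 0.12 for Slc16a1 (SE 0.19), -0.12 for Slc3a2 (SE 0.14), -0.25 for Slc7a5 (SE 0.11), -0.07 for Slc1a5 (SE 0.10) and -0.06 for Slc38a1 (SE 0.08). In the fit without both replicates 3 the direction turned for 15 of 38 members, with log2 fold changes for Slc2a1 at 0.14 (SE 0.07), Slc16a1 at -0.04 (SE 0.07) and Slc3a2 at 0.07 (SE 0.06) among them, and Slc7a5 stood at -0.14 (SE 0.06). Libraries of Cdk8 KO and RasG12V did not overlap for 4 members, Slc1a4, Slc7a1, Slc5a8 and Slc7a5, all lower in Cdk8 KO; over all genes tested 12.5% did not overlap.

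No member passed the threshold for Cdk19 KO against RasG12V either. edgeR called 0 of 38 members, beside 0.0140% of all genes tested. In edgeR, 1 of the 38 members had an unadjusted p under 0.05, beside 1089 of all 14283 genes (7.62%). DESeq2 called 0, with 2 of the 38 at an unadjusted p under 0.05. Leaving out both replicates 3 again gave 0 of 39, beside 2.01% of all genes. The member with the smallest p was the vitamin carrier Slc5a6, which had 19.1, 19.2 and 16.5 CPM in Cdk19 KO cells, against 15.2, 16.9 and 12.3 CPM in RasG12V cells. The groups overlapped (log2 fold change 0.30, SE 0.13, edgeR adjusted p = 0.606). Next by p came Slc38a6 (log2 fold change -0.34, SE 0.16), Slc43a2 (-0.78, SE 0.38), Slc1a2 (-1.01, SE 0.51) and Slc3a2 (-0.26, SE 0.14). Slc43a2 stood, without both replicates 3, at -0.11 (SE 0.19) and Slc3a2 at -0.07 (SE 0.06).

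Slc7a11 had 32.8, 29.5 and 26.00 CPM in Cdk19 KO cells, against 18.9, 20.3 and 124 CPM in RasG12V cells. The Cdk19 KO libraries were above RasG12V replicates 1 and 2 and below replicate 3, so the log2 fold change was -0.89 (SE 0.55, edgeR adjusted p = 0.752) with all libraries and 0.59 (SE 0.16, edgeR adjusted p = 0.0983) without both replicates 3. Log2 fold changes of Cdk19 KO over RasG12V were 0.01 for Slc2a1 (SE 0.12), 0.15 for Slc16a1 (SE 0.19), 0.01 for Slc7a5 (SE 0.11), 0.10 for Slc1a5 (SE 0.10), 0.05 for Slc38a1 (SE 0.08) and -0.03 for Slc38a2 (SE 0.11). In the fit without both replicates 3 the direction turned for 12 of 38 members, with log2 fold changes for Slc16a1 at -0.01 (SE 0.07), Slc38a1 at -0.01 (SE 0.07) and Slc38a2 at 0.09 (SE 0.08) among them, while Slc2a1 stood at 0.20 (SE 0.07), Slc7a5 at 0.12 (SE 0.06) and Slc1a5 at 0.15 (SE 0.08). Libraries did not overlap for 3 members, with Slc6a6 higher and Slc1a2 and Slc3a2 lower in Cdk19 KO, beside 14.5% of all genes. Both knockouts were set against the same RasG12V libraries, so their fold changes share the RasG12V values, replicate 3 included.

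**Figure D5:**
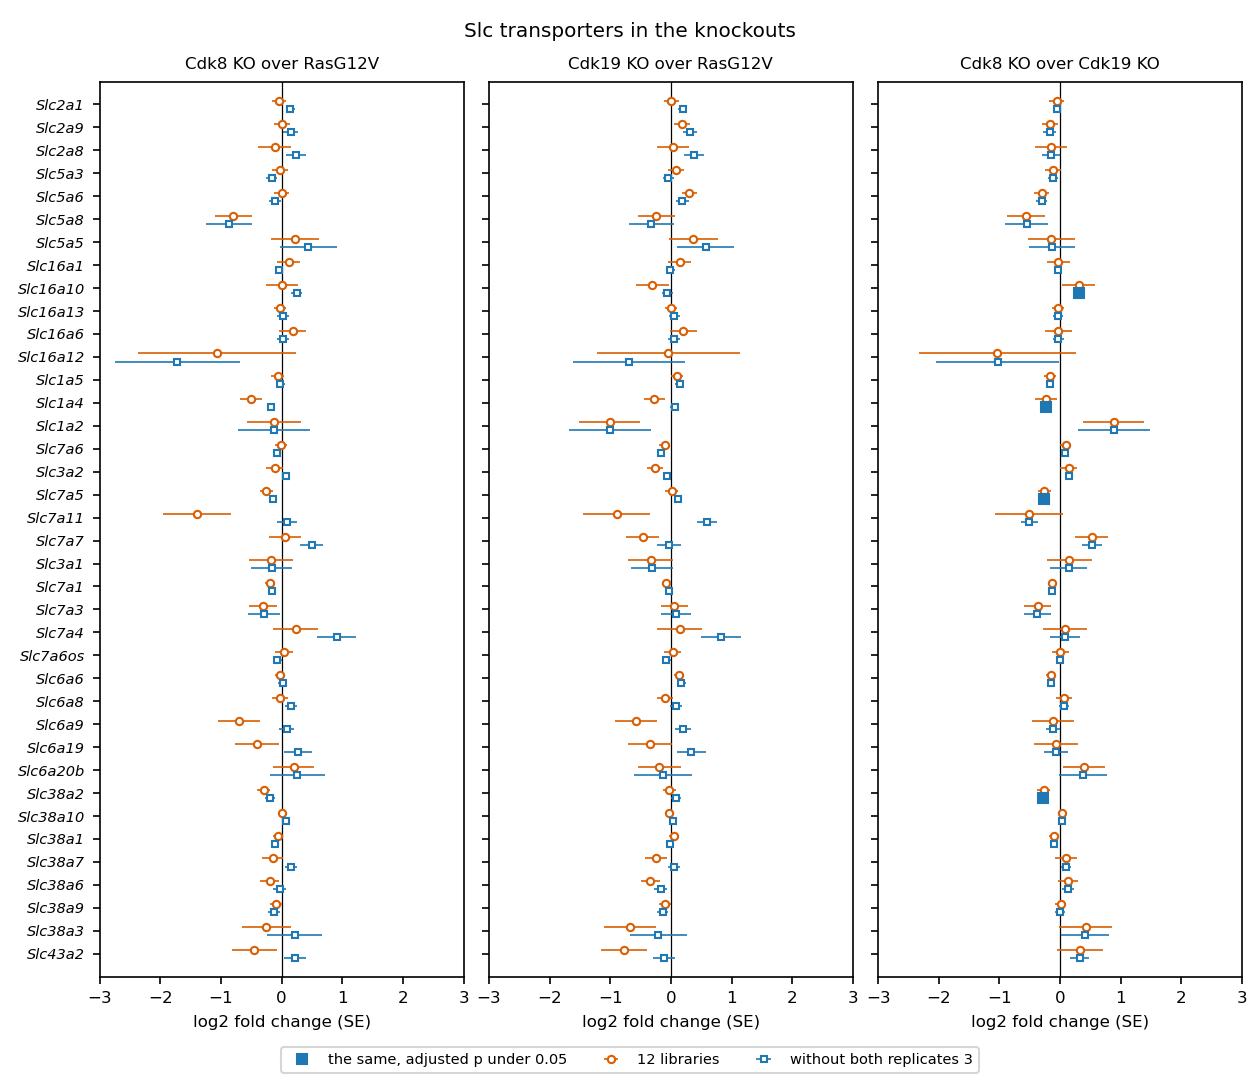
Log2 fold change with SE of each tested member in Cdk8 KO over RasG12V, Cdk19 KO over RasG12V and Cdk8 KO over Cdk19 KO cells, from all 12 libraries (circles) and without both replicates 3 (squares, filled where edgeR's adjusted p was under 0.05). No circle passed; the 4 filled squares in the third panel are Slc7a5, Slc16a10, Slc1a4 and Slc38a2.

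Cdk8 KO against Cdk19 KO tests the difference between the knockouts and uses neither RasG12V nor untransformed levels. edgeR called 0 of 38 members, beside 0.105% of all genes tested. In edgeR, 3 of the 38 members had an unadjusted p under 0.05, beside 1027 of all 14283 genes (7.19%). DESeq2 called 0, with 3 of the 38 at an unadjusted p under 0.05. Libraries of the 2 knockouts did not overlap for 11 members, 2 higher and 9 lower in Cdk8 KO, or 28.9%, beside 20.7% of all genes. Leaving both replicates 3 out of the fit does not touch the 6 knockout libraries but narrows the spread shared by all groups, and then 4 of 39 members passed, 1 higher and 3 lower, beside 5.32% of all genes (3.59% higher and 1.72% lower). With only the 6 knockout libraries in the fit, 2 members passed, Slc7a5 and Slc16a10. The share of all genes that passed in that fit was not counted, so these calls cannot be set beside it.

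The leucine carrier Slc7a5 had 128, 121 and 129 CPM in Cdk8 KO cells, against 153, 152 and 147 CPM in Cdk19 KO cells. All Cdk8 KO libraries were below all Cdk19 KO ones (log2 fold change -0.26, SE 0.11, edgeR adjusted p = 0.641), and without both replicates 3 the edgeR adjusted p was 0.00711. Slc38a2 had 319.7, 276 and 355 CPM in Cdk8 KO cells, against 388, 374 and 386 CPM in Cdk19 KO cells, again with no overlap (log2 fold change -0.27, SE 0.11, edgeR adjusted p = 0.625; 0.0374 without both replicates 3). Slc1a4 had a log2 fold change of -0.23 (SE 0.18, edgeR adjusted p = 0.918; 0.0321 without both replicates 3). Slc16a10 went the other way, with 23.5, 24.6 and 25.3 CPM in Cdk8 KO cells, against 21.02, 18.7 and 19.7 CPM in Cdk19 KO cells. Its libraries did not overlap (log2 fold change 0.31, SE 0.27, edgeR adjusted p = 0.937; 0.0281 without both replicates 3).

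Other members with a small p between the knockouts were Slc5a6 (log2 fold change -0.30, SE 0.12), Slc7a7 (0.52, SE 0.27) and Slc6a6 (-0.15, SE 0.08), with edgeR adjusted p of 0.641, 0.767 and 0.778. Slc7a11 had 15.6, 21.2 and 25.2 CPM in Cdk8 KO cells, against 32.8, 29.5 and 26.00 CPM in Cdk19 KO cells. The Cdk8 KO libraries were all below, just short of overlapping (log2 fold change -0.51, SE 0.56, edgeR adjusted p = 0.958; 0.0664 without both replicates 3). Log2 fold changes of Cdk8 KO over Cdk19 KO were -0.05 for Slc2a1 (SE 0.12), -0.03 for Slc16a1 (SE 0.19), 0.15 for Slc3a2 (SE 0.14), -0.16 for Slc1a5 (SE 0.10) and -0.10 for Slc38a1 (SE 0.08).

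Several genes that handle what these carriers move changed with H-RasG12V. A list of 45 held chaperones of carriers, regulators of their surface level, enzymes that use or make their substrates, and transcription factors such as Atf4 and Hif1a. Of these, 38 were tested and 19 passed in RasG12V against untransformed cells, 13 higher and 6 lower, 50.0% beside the 23.4% of all genes. The list was chosen with earlier results of these data known, so this share is a description and not a test of the list. Leaving out both replicates 3, 26 of 39 passed, 15 higher and 11 lower, beside the 40.0% of all genes. With only the groups compared, 15 of 38 passed, and the share of all genes in that fit was not counted. Glucose enzymes were among those that rose. Hexokinase Hk1, which traps glucose in the cell, averaged 345 ± 26.7 CPM in RasG12V and 203 ± 11.9 CPM in untransformed cells (SD, n = 3 each; log2 fold change 0.77, SE 0.07, edgeR adjusted p = 1.54e-05). Hk2 (log2 fold change 0.67, SE 0.12), lactate dehydrogenase Ldha (0.65, SE 0.13), pyruvate dehydrogenase kinase Pdk1 (1.14, SE 0.12) and the hypoxia factor Hif1a (0.66, SE 0.10) also rose, with edgeR adjusted p between 3.20e-05 and 0.00344.

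Among enzymes of amino acid and glutathione synthesis, some fell and others rose. Glutamine synthetase Glul averaged 292 ± 39.9 CPM in RasG12V and 505 ± 23.97 CPM in untransformed cells (log2 fold change -0.79, SE 0.09, edgeR adjusted p = 5.98e-05). The glutathione synthesis enzymes Gclc (-1.33, SE 0.22, edgeR adjusted p = 0.000953) and Gclm (-0.62, SE 0.11, edgeR adjusted p = 0.00193) fell. The serine synthesis enzyme Phgdh (0.58, SE 0.13), the branched-chain aminotransferase Bcat1 (1.24, SE 0.26) and arginase Arg2 (2.83, SE 0.50) rose, from low levels for Bcat1 (1.82 ± 0.291 CPM in RasG12V and 0.766 ± 0.0918 CPM in untransformed cells) and Arg2 (0.694 ± 0.224 CPM in RasG12V and 0.0955 ± 0.0598 CPM in untransformed cells). The call of Phgdh was lost with only the groups compared (adjusted p = 0.0647). Arg2 met the count filter only through transformed libraries, so its entry to the test and its rise rest on the same values.

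Some genes of creatine, taurine and inositol metabolism changed and others did not pass. Creatine kinase Ckb averaged 4.15 ± 0.775 CPM in RasG12V and 0.937 ± 0.201 CPM in untransformed cells (log2 fold change 2.14, SE 0.26, edgeR adjusted p = 0.0001003), and Gatm, which starts creatine synthesis, averaged 7.44 ± 1.26 CPM in RasG12V and 2.76 ± 0.680 CPM in untransformed cells (log2 fold change 1.43, SE 0.18, edgeR adjusted p = 0.000122). The creatine carriers gave a fall for Slc16a12, described above, and a log2 fold change of -0.11 (SE 0.13, edgeR adjusted p = 0.595) for Slc6a8, which passed as lower without both replicates 3 (log2 fold change -0.29, SE 0.10, edgeR adjusted p = 0.0356). Csad, an enzyme of taurine synthesis, fell (log2 fold change -0.84, SE 0.23, edgeR adjusted p = 0.0200), as did the inositol synthase Isyna1 (log2 fold change -0.34, SE 0.08, edgeR adjusted p = 0.0103). The call of Isyna1 was lost with no filter on low counts (adjusted p = 0.121) and with only the groups compared (adjusted p = 0.0945). Gamt, Cdo1 and Impa1, which act in creatine, taurine and inositol metabolism, had log2 fold changes of 0.25 (SE 0.17), 0.14 (SE 0.32) and 0.14 (SE 0.09) and did not pass. Of the regulators of carrier turnover, the arrestin-like Arrdc3 rose by 0.76 on the log2 scale (edgeR adjusted p = 0.00173; 0.44 without both replicates 3) and the ubiquitin ligase Nedd4l fell (log2 fold change -0.58, SE 0.10, edgeR adjusted p = 0.000897). Arrdc4 was barely past the threshold (log2 fold change 0.40, SE 0.14, edgeR adjusted p = 0.0486), and its call was lost without any 1 of 11 libraries (all but RasG12V replicate 2; adjusted p from 0.05001 to 0.167). Without RasG12V replicate 3 its log2 fold change was 0.24, and without both replicates 3 it was 0.19. The call of Csad was lost without untransformed replicate 1 or 2 or RasG12V replicate 1 or 2 (adjusted p = 0.0736, 0.0683, 0.0732 and 0.0784), while without both replicates 3 its log2 fold change was -1.37.

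In the knockout comparisons, edgeR called 0 of the 38 tested genes of this list each time. An unadjusted p under 0.05 was found for 7 of 38 in Cdk8 KO against RasG12V and 5 of 38 in Cdk19 KO against RasG12V. For Cdk8 KO against Cdk19 KO it was found for 4 of 38. Over all genes tested, the shares were 6.10%, 7.62% and 7.19% in the same order. DESeq2 called 0, 1 and 0 genes in these comparisons, the 1 gene being Arrdc4, lower in Cdk19 KO than in RasG12V cells (edgeR log2 fold change -0.57, SE 0.14, adjusted p = 0.282). Bsg, the chaperone that carries Slc16a1 to the cell surface, had 579, 584 and 545 CPM in Cdk8 KO cells, against 456, 435 and 482 CPM in Cdk19 KO cells. Its libraries did not overlap (log2 fold change 0.32, SE 0.10, edgeR adjusted p = 0.428), and without both replicates 3 the edgeR adjusted p was 0.00202. The same held for Phgdh (log2 fold change 0.40, SE 0.13, edgeR adjusted p = 0.432; 0.000127 without both replicates 3). Without both replicates 3, Arrdc4 (log2 fold change 0.32, SE 0.09, edgeR adjusted p = 0.0494) and Psat1 of serine synthesis (log2 fold change -0.35, SE 0.08, edgeR adjusted p = 0.0163) also passed between the knockouts, and Gatm passed in Cdk19 KO over RasG12V (log2 fold change 0.67, SE 0.13, edgeR adjusted p = 0.00735). In that fit 4 of 39 genes of the list passed between the knockouts, beside 5.32% of all genes. For each knockout against RasG12V it was 1 of 39, beside 1.59% (Cdk8 KO) and 2.01% (Cdk19 KO) of all genes.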

How the data were processed

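Gene counts, 1 table per library, were deposited for 12 libraries of BMEL cells. Per the submitters' processing notes, the authors used FastQC and STAR 2.6.0a with GRCm38.p6; the annotation release they counted against is not given in the sources used here. RNA was depleted of ribosomal RNA and prepared with a TruSeq RNA kit, per the labels. The reverse-strand column (column 4) held 24.7 to 28.9 times the forward-strand reads and was used. Reads outside genes (4.31% to 5.85%), ambiguous (0.963% to 1.04%), unmapped (2.10% to 3.34%) or mapped to several places (23.0% to 26.3%) were left out of library sizes; reads of near-identical copies were thus not counted. Of 54146 identifiers, 54079 matched GENCODE M21, which gave symbols, GRCm38 coordinates and exon lengths.

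Counts were tested with edgeR 4.0.16 in R 4.3.3 (filterByExpr, TMM, robust glmQLFit and glmQLFTest; 12 libraries in 1 fit, no block), with Benjamini-Hochberg adjustment over 14283 genes and a threshold of 0.05. CPM are TMM-scaled. The SE of a log2 fold change is its size over the root of edgeR's F statistic. The fit was checked on simulated counts. Counting intervals are 95% and, like the floor of 3 counts, cover counting error only.

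Named members are 10 carriers given in every comparison, in each class up to 5 called members of at least 1 CPM, the 5 uncalled members of smallest p in each comparison of transformed groups, and the leading member of each class per kb; others are named after their values were seen. The members and lists were chosen with earlier results of these data known, and so was the fit without both replicates 3. Alternatives were RLE factors, no filter on low counts, DESeq2 1.42.0, unstranded counts, a replicate block, fits of only the groups compared, the longest transcript as length, and each library left out in turn. One gene of the handling list is counted but not reported here by name. Promoters are from RefSeq (GRCm38.p6). Figures were drawn with matplotlib 3.10.9.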

Additional observations from a re-analysis of the deposited data

How the results depend on the processing

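For RasG12V against untransformed cells, the 11 members past the threshold became 3 with only the groups compared in the fit, 23 without both replicates 3, and 6 to 17 with each library left out in turn (6 without untransformed replicate 1, 17 without RasG12V replicate 3). RLE factors and unstranded counts gave 11, DESeq2 12 and no filter 14; a replicate block gave 12, the 11 and Slc38a10. The labels do not say whether same-numbered libraries share more than a number. Correlations of their deviations from group means ranged from -0.17 to 0.28, over 0.1 in 8 of 18 pairs. For RasG12V replicate 3 they were 0.16, 0.15 and 0.28 with replicate 3 of untransformed, Cdk8 KO and Cdk19 KO cells. With libraries of these groups that bear another number, its correlations ranged from -0.29 to 0.16. Deviations sum to 0 within a group, so a positive correlation with 1 library forces a negative one with another of its group. A shared batch was not tested. For Cdk8 KO against Cdk19 KO, 0 members became 2 with only those groups and 4 without both replicates 3; Cdk8 KO or Cdk19 KO against RasG12V stayed at 0 under every alternative run. The list of handling genes had 17 to 24 calls in RasG12V against untransformed cells with a library left out, 26 without both replicates 3 and 15 with only the groups compared, and, with a library left out, 0 to 0 in the knockout comparisons. Without both replicates 3 it had 1 call of 39 for each knockout against RasG12V and 4 for Cdk8 KO against Cdk19 KO. Over all genes, 1.59% passed for Cdk8 KO against RasG12V, 2.01% for Cdk19 KO against RasG12V and 5.32% between the knockouts. No filter gave 1 call for Cdk19 KO against RasG12V and 1 between the knockouts. DESeq2 gave 1 for Cdk19 KO against RasG12V, and fitting only the 2 knockouts gave 3. Shares of all genes were not counted for these last fits. Members that separated transformed from untransformed libraries numbered 17 without both replicates 3, beside 45.5% of all genes, and 9 with all libraries. No named gene's called direction reversed. With the longest transcript as length, 6 of 10 leading members' levels moved by more than the SD, while the leading member of each class kept its place. The cause of these changes was not tested.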
